A study of Mus musculus with 12 samples.

Results

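Isolated H3K9me3 regions are regions of the authors' deposited comparison that stand far from any other listed region. They were chosen by position: the table was sorted along the genome, and on chromosomes 1 to 19 except 11 and 16 a region was taken when the gaps to its previous and to its next neighbour were both at least 100000 bp. Of 68291 regions in the table, 59583 lay on these chromosomes and 1124 were isolated. Within these chromosomes only positions entered the choice, but the rule, with the chromosomes it leaves out, was written with earlier results of these data known. The regions just inside the limit, in Arhgap17 and Ccdc148, had smaller gaps of 100265 and 100324 bp and log2 fold changes of -0.18 and 0.08. Those just outside it, near Tas2r140 and Tbx18, had smaller gaps of 99997 and 99955 bp and log2 fold changes of -0.51 and 0.78.

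The study profiled H3K9me3 by chromatin immunoprecipitation and sequencing (ChIP-seq) in mouse embryonic stem cells derived from the E14Tg2a line (129/Ola background), at passages 12 to 20, with paired reads of 75 nt. One group was heterozygous (Tex19.1+/-) and the other lacked Tex19.1 (Tex19.1-/-), each with 3 immunoprecipitated and 3 input libraries. Tex19.1 is active in germ cells and pluripotent cells of mammals, and the comparison asks where H3K9me3 differs in its absence. In 6 of the 12 libraries, 3 of them immunoprecipitated, titles and genotype fields name different genotypes, and the titles were used. The labels do not say how many clones were used or whether libraries of like genotype were separate cultures, and the deposited p-values may rest on technical spread alone. Each region has 1 log2 fold change, 1 log2 CPM averaged over libraries (CPM scales a read count to the size of its library), 1 p-value and 1 adjusted p-value (FDR), without values for single libraries. Every change, signal, p and FDR given for a region is the value of the authors' deposited table. Which genotype was the reference is not given in the sources used here, so changes are described by sign as deposited. Depth per library and spread between replicates were not analysed here.

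H3K9me3 is a mark of silent chromatin. It is laid down by the methyltransferases SETDB1, SUV39H1 and SUV39H2 and read by HP1 proteins, and in embryonic stem cells it covers many retrotransposons, clusters of zinc finger and receptor genes, imprinting control regions and the promoters of some germline genes. It can form broad domains that hold many adjacent enriched regions, whereas an isolated region here has no other listed region within 100 kb. Whether the unlisted chromatin around it lacked the mark was not examined.

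Some isolated regions lay at gene starts, and their reference sequences are shown first because they differ in kind. Of the 32851 RefSeq windows (GRCm38.p6, the assembly that mm10 names) that span 250 bases before to 50 bases after a gene's start, 11 overlapped an isolated region. They belonged to 5 protein-coding and 6 noncoding genes, and 9 of the starts lay inside the region. The first pair are germline genes, printed 5′ to 3′ along the gene with CpG dinucleotides in capitals. Dpep3 encodes a membrane dipeptidase of the testis (chr8:105979370-105979669, minus strand), and Tex12 a component of the central element of the synaptonemal complex (chr9:50561219-50561518, minus strand). Tex12 was not in the germline list and is shown because its window overlapped an isolated region.
Dpep3: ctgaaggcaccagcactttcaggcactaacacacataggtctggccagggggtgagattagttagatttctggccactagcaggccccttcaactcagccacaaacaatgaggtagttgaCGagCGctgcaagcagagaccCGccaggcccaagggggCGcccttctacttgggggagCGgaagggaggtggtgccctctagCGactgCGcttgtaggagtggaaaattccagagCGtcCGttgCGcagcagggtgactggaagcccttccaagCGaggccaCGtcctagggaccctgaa
Tex12: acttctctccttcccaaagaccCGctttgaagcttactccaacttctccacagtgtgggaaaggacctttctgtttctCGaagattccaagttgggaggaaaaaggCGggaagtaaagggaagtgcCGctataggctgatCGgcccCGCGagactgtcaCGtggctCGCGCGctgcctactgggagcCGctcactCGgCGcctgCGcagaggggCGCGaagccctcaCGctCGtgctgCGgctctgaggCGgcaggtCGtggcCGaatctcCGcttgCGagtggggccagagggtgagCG

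The Tex12 window held 26 CpGs, with an observed over expected ratio of 0.915, and the Dpep3 window 12, with a ratio of 0.462. The median of all windows was 7 CpGs and a ratio of 0.384, and over the 11 windows in isolated regions it was 2 CpGs and 0.155. The 775 windows at other regions of the same chromosomes had a median of 4 CpGs and a ratio of 0.241. Motifs were searched as letters on both strands: the E-box CACGTG, a binding site of MAX and MGA; GCGGGAA, bound by E2F factors; and TGCCGC, the site of the imprinting factor ZFP57. The Tex12 window held all 3, with 1, 1 and 2 copies, and none was found in the other 10 windows. Each motif was thus in 9.09% of the 11 windows, against 7.15%, 4.6% and 11.6% of all windows in the order given.

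The noncoding genes Gm15389 (chr1:107686750-107687049, plus strand), Gm52784 (chr5:121283230-121283529, minus strand) and Gm32681 (chr9:51046168-51046467, plus strand) are shown because their windows share a stretch. It is the longest that at least 3 of the 11 windows have in common, and it was found after the sequences were seen. Capitals mark it, as TAACCAATCAGATG in the first pair and as its reverse complement CATCTGATTGGTTA in the third.
Gm15389: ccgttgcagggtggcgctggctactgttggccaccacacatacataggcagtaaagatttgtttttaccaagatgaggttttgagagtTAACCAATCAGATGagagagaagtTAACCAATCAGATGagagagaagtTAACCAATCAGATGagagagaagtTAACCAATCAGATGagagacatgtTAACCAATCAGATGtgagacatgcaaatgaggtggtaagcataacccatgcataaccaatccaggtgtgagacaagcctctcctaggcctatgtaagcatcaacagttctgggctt
Gm52784: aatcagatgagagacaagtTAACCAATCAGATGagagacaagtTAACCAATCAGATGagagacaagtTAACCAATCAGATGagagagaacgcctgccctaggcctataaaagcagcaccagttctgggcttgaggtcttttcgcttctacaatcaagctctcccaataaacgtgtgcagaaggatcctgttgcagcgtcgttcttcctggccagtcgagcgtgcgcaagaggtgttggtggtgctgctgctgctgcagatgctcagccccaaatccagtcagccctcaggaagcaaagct
Gm32681: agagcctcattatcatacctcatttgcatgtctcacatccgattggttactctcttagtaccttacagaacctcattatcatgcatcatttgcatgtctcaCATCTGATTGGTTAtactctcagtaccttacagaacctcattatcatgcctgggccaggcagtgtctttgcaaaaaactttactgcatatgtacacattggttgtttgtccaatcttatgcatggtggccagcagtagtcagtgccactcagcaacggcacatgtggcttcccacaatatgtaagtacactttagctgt

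The stretch occurred 5 times in the Gm15389 window, 3 times in the Gm52784 window and 1 time in the Gm32681 window. Since it was picked from these windows, its count of 3 in 11 is no result. Across the RefSeq windows it was rare. It stood in 27 of 32851 windows (0.0822%) and in 8 of the 31954 that overlapped no region of the table (0.025%), against 15 of the 775 at other regions of the same chromosomes (1.94%). These 15 windows lay in 14 regions, of which 4 had a positive log2 fold change and 1 was called, beside 0.185% of all other regions. The called one lay at 4933404K08Rik on chromosome 13 (0.50, FDR 0.0356 in the authors' deposited table). Called regions with positive values lay on both sides of it, at 22993289 to 22998174 (0.45) and 23323882 to 23326423 (0.74). The 1 call therefore says nothing about the stretch. A match describes these letters only. The 44 isolated regions of chromosome 18 were not compared with gene starts.

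None of the regions at gene starts was called, which here means an FDR below 0.05, beside 0.281% of all regions of the table. The region over the Dpep3 start (chromosome 8, 105977500 to 105981092) had a signal of 70.2 CPM and a log2 fold change of -0.13 (derived standard error 0.114, with FDR 1 in the authors' deposited table). Its nearest listed neighbours were 515786 and 387152 bp away, although 13 protein-coding genes lay within 100 kb. At Tex12 (chromosome 9, 50560834 to 50561461), where the region also overlaps the body of the cytokine gene Il18, the signal was 9.7 CPM and the log2 fold change -0.05, with a standard error of 0.344. All errors given are derived: the size of the change was divided by the normal deviate that its 2-sided deposited p-value implies. Where that deviate was below 1, the median error of regions of like signal was used.

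The other protein-coding starts were those of Inhbc, an inhibin beta subunit of the liver (log2 fold change -0.38, standard error 0.247), Lrg1, a secreted leucine-rich glycoprotein (-0.35, standard error 0.431), and the predicted gene Gm51582 (-0.30, standard error 0.128, unadjusted p = 0.02, FDR 0.81 in the authors' deposited table). The start of Lrg1 lay 223 bp outside its region. All 5 values at protein-coding starts were negative and all but that at Gm51582 were within 2 derived standard errors of 0. As the errors come from deposited p-values, this adds nothing to those. At the 6 noncoding starts, values ran from -0.26 at Gm34178 to 0.55 at Gm52784, with 5 of the 11 regions positive in all.

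**Figure D1:**
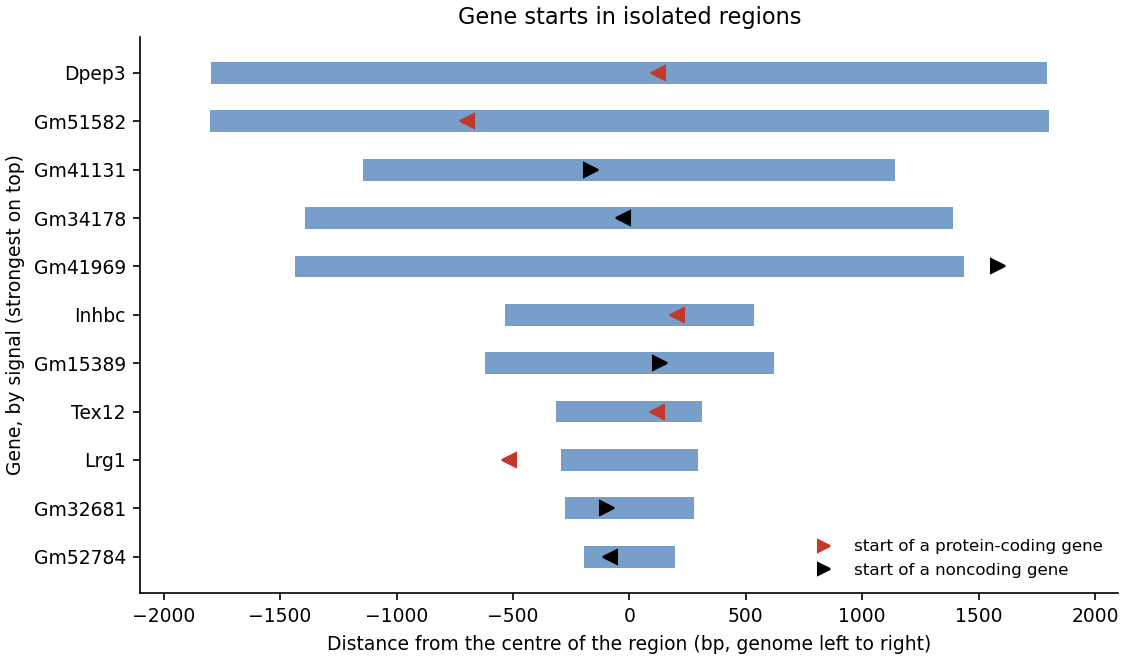
Each bar is an isolated region overlapping a RefSeq promoter window, centred on its own midpoint (horizontal axis, bp), ordered by signal. Triangles mark the gene start and point along transcription, red for the 5 protein-coding and black for the 6 noncoding genes; 9 starts lie inside the region, and those of Lrg1 and Gm41969 lie just outside.

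Apart from their distance from neighbours, isolated regions were much like other regions in size and density. Their median width was 746 bp (quartiles 500 to 1136), against 776 bp (500 to 1383) in the 58459 other regions of the same chromosomes. Median signal was 8.02 CPM, against 8.52, and signal per kb of region was 11.4 CPM in both sets. The upper end was thinner: 8 isolated regions (0.712%) were 5 kb or longer, against 2.46% of other regions, and 19% reached a log2 CPM of 4, against 26.9%. The widest isolated region spanned 7906 bp and the widest other region 28573 bp. Together the 1124 covered 1089.6 kb and held 13475 of the 1081650 CPM summed over the table. Across isolated regions signal followed width (Spearman rho 0.971, n = 1124), while rho between the smaller gap and signal was 0.0153 and between the smaller gap and width 0.00283.

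Isolation was not always solitary at a larger scale. Of the 1124 regions, 665 stood between neighbours that were not isolated, and 459 had at least 1 isolated region as neighbour. The latter formed 195 runs, the longest of which held 8 regions. The regions at Tex12 and Gm32681 are such neighbours on chromosome 9, with 484774 bp between them. The largest smaller gap, 601729 bp, belonged to a region in Ctnna2, an alpha catenin of neurons (chromosome 6, 77330880 to 77331629), with a log2 fold change of -0.25. It was followed by a region 68987 bp from Skint5 (578075 bp, log2 fold change 0.07) and by one in Homer3, a synaptic scaffold gene (552854 bp, 0.74). None of the 3 was called, beside 0.281% of all regions of the table, and each had FDR 1 in the authors' deposited table.

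Isolated regions lay over genes more often than the rest. A gene body was overlapped by 630 of 1124 (56%), against 36.1% of other regions, and a protein-coding gene by 526 (46.8%), against 24.9%. The share over a protein-coding gene was 23.6% for regions with a smaller gap under 1 kb, 21.2% at 1 to 10 kb, 29.2% at 10 to 50 kb and 39.1% at 50 to 100 kb. Noncoding RNA genes (lncRNA) were overlapped by 10.3%, against 9.33%, and pseudogenes by 1.78%, against 2.96%. Exons and introns, repeats and mappability were not analysed here. These are shares of regions in 1 table, given without a test.

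**Figure D2:**
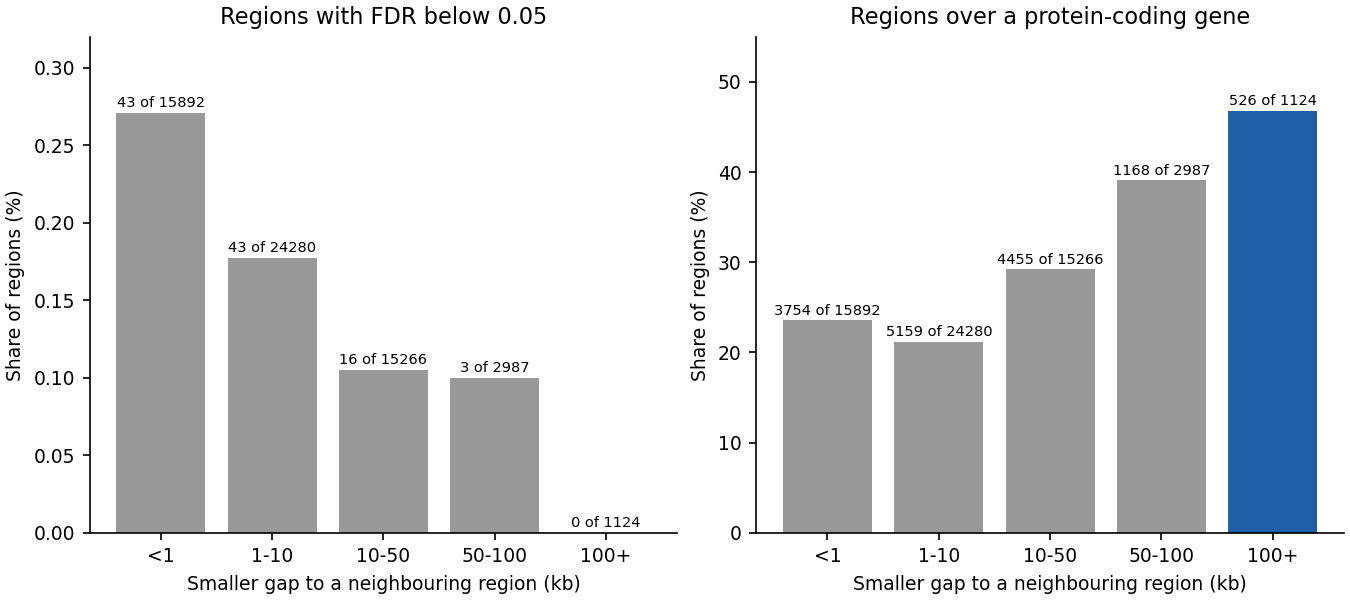
Regions of the 17 chromosomes by the smaller of their gaps to a neighbour (kb), with the share called at FDR below 0.05 (left) and the share over a protein-coding gene (right), in percent; isolated regions are blue and labels give counts. The called share is 0.271% under 1 kb and 0 of 1124 in isolated regions, with signal not held alike between classes. The share over protein-coding genes is 46.8% in isolated regions.

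The protein-coding hosts were long genes. The 526 regions fell in 485 genes, and the longest host of a region had a median length of 223.6 kb, against 152.4 kb for other regions in protein-coding genes. Hosts of 500 kb or more held 27.8% of them, against 17%. The hosts with the most isolated regions, 4 each, were Cntnap2 and Opcml, which encode neuronal adhesion proteins, Dlg2, a postsynaptic scaffold, Dpp10, an auxiliary subunit of potassium channels, and Egfem1. In Cntnap2, a gene of 2241 kb, the log2 fold changes were -0.22, -0.00066, -0.24 and -0.36, and in Opcml -0.53, -0.00085, -0.28 and -0.20. All 8 values were negative, though -0.00066 and -0.00085 were close to 0, and each had FDR 1 in the authors' deposited table. Cntnap2, Opcml, Dlg2 and Dpp10 were named after their values were seen. Regions of 1 gene are not replicates, so a shared sign is only a description. In Dlg2 the values were -0.43, 0.43, 0.11 and 0.14 and in Dpp10 0.10, -0.16, -0.05 and 0.33. In Egfem1 they ran from -0.20 to 0.35, so that signs were mixed within each of these genes.

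The list of adhesion and synapse organiser genes of neurons, taken by symbol pattern, had the most isolated regions. Of its 60 genes, 21 had an isolated region in the body or within 5000 bp, with 43 regions in all. The list is broader than its name. Its pattern also took the channel subunit gene Dpp10 (4 regions), Csmd1 (2), Csmd3 (3), Ctnna3 (3), Ctnna2 and Slit1. The 43 regions were 3.83% of isolated regions, against 0.423% of other regions (247). Of the 43, 0 were called, beside 0.281% of all regions and 0 of the 247 other regions of the list, so that the count says nothing about the list. Of the 43, 15 were positive and the median log2 fold change was -0.07, beside 0.0012 over all isolated regions. The 247 other regions of the list had a median of -0.01. The difference was not tested, and several of the 43 share a gene. Only the region in Lrrtm4, a postsynaptic adhesion protein, had an unadjusted edgeR p below 0.05 (-0.45, standard error 0.221, with FDR 1 in the authors' deposited table). The highest value, 1.34 in the presynaptic adhesion gene Nrxn3, came from a region of 255 bp at a log2 CPM of 1.53, with a standard error of 0.919. Glutamate and GABA receptor genes had 9 isolated regions (0.801%, against 0.217%), with a median of 0.09, and ion channel genes 8 (0.712%, against 0.58%), with a median of 0.07. Cadherins and protocadherins outside the clusters had 6 (0.534%, against 0.443%), with a median of 0.16.

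Large gene families that lie in clusters had few isolated regions, and only some had a smaller share of these than of other regions. Zinc finger genes taken by symbol had 4 (0.356%, against 0.857%), at Zfp341 (-0.43), Zfp407 (0.48), Zfp804a (-0.06) and Zfp804b (0.09). Olfactory receptor genes had 2 (0.178%, against 0.722%), in Olfr522 (-0.33) and at the pseudogene Olfr1498-ps1 (0.22). Vomeronasal receptor genes had 2 (0.178%, against 0.754%), near Vmn1r129 (-0.55) and in Vmn2r57 (-0.14). The clustered protocadherins had 1 (0.089%, against 0.0325%), at 0.28, within the gamma cluster on chromosome 18. The histone list had 1 (0.089%, against 0.0171%), near the oocyte linker histone gene H1f8, at 0.49. None of these 10 regions was called, and none had an unadjusted p below 0.05, beside 0.281% and 4.74% of all regions of the table.

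Of 55 germline and meiosis genes, 3 had an isolated region: Dpep3, Mei4, which acts in the formation of meiotic DNA breaks (-0.07, standard error 0.344), and Rnf17, a Tudor domain gene of the testis (0.12, standard error 0.687). These 3 regions were 0.267% of isolated regions, against 0.101% of other regions for the list. A region in Meiob, which encodes a single-strand DNA binding protein of meiosis, was noticed after its values were seen. It lay 453277 bp from its nearest neighbour and had a log2 fold change of -0.58 (standard error 0.408, with FDR 1 in the authors' deposited table). Imprinted genes had 1 isolated region (0.089%, against 0.195%), in Snrpn (0.12, standard error 0.431). Of their 114 other regions, 6 were called, beside 0.185% of all other regions. H3K9 methylation and silencing factors had 2 (0.178%, against 0.0171%), in the DNA methyltransferase gene Dnmt3a (-0.21) and 4568 bp from the H3K9 methyltransferase gene Ehmt1 (-0.31). The lists of 2-cell-stage, pluripotency, early lineage and fibroblast genes had 0. No isolated region of any list was called, beside 0.281% of all regions of the table.

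The genotype comparison called 0 of the 1124 isolated regions. Of all regions in the table, 0.281% were called, and on the same 17 chromosomes 0.181% (108 of 59583). If regions were independent, a count of 0 would allow a share of up to 0.267%, above the 0.181% of the same chromosomes. The 0.281% of the whole table also covers chromosomes outside the rule. The bound takes no account of signal or of shared libraries, so the count of 0 cannot show that isolated regions were called less often. The smallest FDR was 0.24. An unadjusted p below 0.05 was found in 27 isolated regions (2.4%), against 4.74% of all regions and 3.68% on the same chromosomes. Of these, 14 were positive and 13 negative, while on the same chromosomes 1.5% of regions passed with a positive and 2.18% with a negative value. The p-values are those of the authors' deposited table, whose submitters name edgeR, and no other tool could be run without values per library.

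Few regions of low signal were called. Among other regions the called share was 0.00472% where log2 CPM was 2 to 3, 0.0331% for 3 to 4, 0.205% for 4 to 5, 0.497% for 5 to 6 and 2.21% for 6 to 8. Of the isolated regions, 561 (49.9%) had a log2 CPM below 3 and 12 reached 6. The smallest called change anywhere in the table in the same ranges was 1.51, 1.00, 0.68, 0.48 and 0.24. Only 2 isolated regions had a change as large as the smallest called change of their signal range, near Mdfic and near Grk6. An unadjusted p below 0.05 was found in 2.06% of isolated regions in the lowest of these ranges, against 2.23% of other regions, and in 2.0% against 2.74% in the next. For a log2 CPM of 4 to 5 the shares were 2.03% and 4.32%, for 5 to 6 they were 7.55% and 8.26%, and for 6 to 8 they were 16.7% and 19.8%. Below a log2 CPM of 2 the order was the other way, with 1.61% of isolated and 1.23% of other regions. From 2 to 9 isolated regions stood behind each of these shares, and the differences were not tested.

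**Figure D3:**
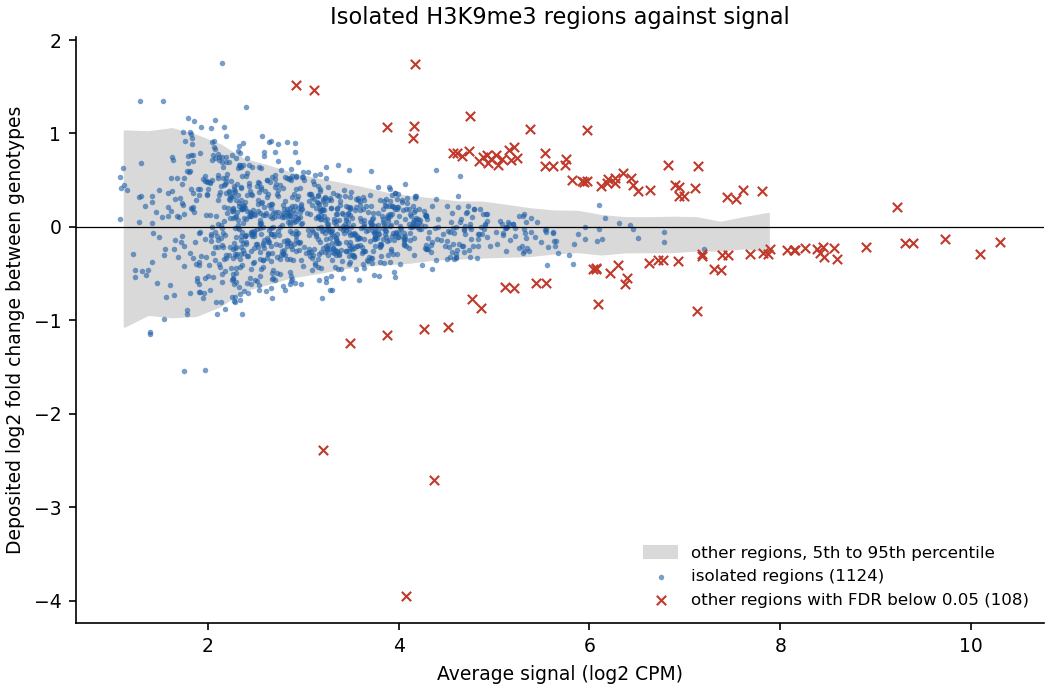
Deposited log2 fold change against average signal (log2 CPM) for the 1124 isolated regions (blue points), with the 5th to 95th percentile of other regions of the same chromosomes (grey, bins of 0.25 below a log2 CPM of 8 with at least 20 regions) and the 108 called regions (red crosses). Isolated regions narrow towards 0 with signal, and the changes above 1 in size all lie at a log2 CPM of 2.40 or less.

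Few regions were remote, called or not. Of the 108 called regions, 3 had a smaller gap of at least 50 kb, beside 4111 of all 59583 regions of these chromosomes. The 3 called ones lay in the imprinted gene Impact (81132 bp), the translation factor gene Eif3f (68417 bp) and the zinc finger gene Zfp532 (50554 bp). The median smaller gap was 1555 bp for called regions and 3736 bp for all regions of these chromosomes. The called share was 0.271% under 1 kb, 0.177% at 1 to 10 kb, 0.105% at 10 to 50 kb and 0.1% at 50 to 100 kb. Strong regions were also more frequent at short gaps, with 29.8% at a log2 CPM of 4 or more under 1 kb and 19% in isolated regions. Among regions at a log2 CPM of 5 or more, 33 of 2381 (1.39%) were called under 1 kb and 39 of 3020 (1.29%) at 1 to 10 kb. At 10 to 50 kb it was 7 of 910 (0.769%), at 50 to 100 kb 2 of 149 (1.34%) and in isolated regions 0 of 65. At this signal the share did not fall steadily with the gap. The part of signal in the trend was not tested beyond these counts. A further 34 regions had a neighbour on 1 side only and belong to no gap class, and 3 of them were called.

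The isolated region of smallest p lay in Zic4, a zinc finger transcription factor gene of the developing cerebellum (chromosome 9, 91384586 to 91388496). It had a log2 fold change of -0.40 with a derived standard error of 0.125 (p = 0.00146, FDR 0.24 in the authors' deposited table). The strongest and widest isolated region, 4419 bp from the receptor kinase gene Grk6 (chromosome 13, 55432747 to 55440653), had 147 CPM and a log2 fold change of -0.24 (standard error 0.0767, FDR 0.254). A region 226025 bp from Hdgfl1 on chromosome 13 (26539674 to 26542147) had -0.41 (standard error 0.139, FDR 0.366). These 3 were the negative changes of smallest p and each came from a region above 40 CPM. On the positive side, Dyrk3, a protein kinase gene (chromosome 1, 131128794 to 131131146), had 0.55 (standard error 0.195, with FDR 0.471 in the authors' deposited table). A region 5342 bp from the integrin gene Itga9 (chromosome 9, 118599060 to 118601367) had 0.61 (standard error 0.218, FDR 0.484).

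The largest changes in size were at weak regions. A region of 639 bp near Mdfic had 1.75 at 4.43 CPM (standard error 0.569, with FDR 0.291 in the authors' deposited table). The most negative value, -1.54 at 3.36 CPM, belonged to a region 88814 bp from Bmp4, a signalling ligand gene of the early embryo (standard error 0.694, FDR 0.89). The value of 1.34 in Fat3, an atypical cadherin gene, came from a region of 2.44 CPM (standard error 0.924, FDR 1). Both of these were named after their values were seen. One near Slc7a11, the cystine and glutamate exchanger, had 1.29 at 5.29 CPM (standard error 0.509, FDR 0.671), and one near Klhl1, a kelch protein gene of neurons, had -1.53 at 3.91 CPM (standard error 0.653, FDR 0.808). In Nwd2 the change was 0.90 at 7.54 CPM (standard error 0.395, FDR 0.838). Changes above 1 in size were found in 16 isolated regions, 12 positive and 4 negative, the strongest of them with a log2 CPM of 2.40. Of all isolated regions, 925 (82.3%) lay within 0.5 of 0, close to 84.2% of other regions.

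The other isolated regions of high signal had values near 0. After the region near Grk6, signal was highest near Gal3st3, a sulfotransferase gene (-0.17, standard error 0.0915), near Arih1, a ubiquitin ligase gene (-0.05, standard error 0.0932), and in Palld, an actin-binding protein gene (-0.12, standard error 0.0996). Next were a region 290154 bp from the serotonin receptor gene Htr1a (-0.02), one in Ercc3, a helicase gene of DNA repair (0.02), one in Lsmem1 (0.05), one near Vezt (0.10), Dpep3 and one near Mmp19 (-0.03). Each of these 9 had FDR 1 in the authors' deposited table. A region in Uqcc1, an assembly factor gene of the respiratory chain, chosen after its values were seen, had 0.24 at 68.4 CPM (standard error 0.114, FDR 0.975). Among regions at a log2 CPM of 4 or more, the remaining extremes were -0.41 near Kcnv1, -0.40 in Sorcs3, 0.45 near Elavl2, 0.33 in Borcs5 and 0.33 near Fbxl7, all with FDR 1.

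The centre of the changes was at 0. The median log2 fold change of isolated regions was 0.0012 (95% binomial interval of the median -0.02 to 0.03), with quartiles of -0.21 and 0.23, beside -0.03 in other regions of the same chromosomes and -0.01 in the whole table. Positive values made up 50.4%, against 46.2% of other regions. The interval treats regions as independent, which they need not be. The difference was largest among weak regions. At a log2 CPM below 2 the medians were 0.18 in isolated and 0.03 in other regions, and at 2 to 3 they were 0.09 and 0.02. For 3 to 4 they were -0.03 and -0.02, for 4 to 5 they were -0.0076 and -0.05, for 5 to 6 they were -0.06 and -0.07, and for 6 to 8 they were -0.04 and -0.09. The isolated median was thus the higher in each range but 3 to 4. The derived error of a single region had a median of 0.379 in isolated regions. That is not the error of a median over many regions, and these differences between medians were not tested.

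Isolated regions with many genes nearby had lower values than those with none. The 195 isolated regions with 5 or more protein-coding genes within 100 kb had a median log2 fold change of -0.09 and 37.9% positive values. The 669 with 1 to 4 such genes had 0.02 and 52.2%, and the 260 with none had 0.05 and 55.4%. The median signal was alike in the first and last of these, at a log2 CPM of 3.13 and 3.15. On 14 of 17 chromosomes the median of gene-rich isolated regions was below that of gene-free ones, from as few as 5 and 4 regions per chromosome. The outer classes kept this order in each signal range: -0.09 against 0.16 below a log2 CPM of 3, -0.18 against -0.03 at 3 to 4, and -0.07 against -0.0024 at 4 or more. The class with 1 to 4 genes did not always lie between them, with 0.00034 at 3 to 4. Among other regions the medians were -0.04 with 5 or more genes and -0.03 with none. The split was not planned and its difference was not tested, and errors of single regions do not measure it. Chromosomes and signal ranges are cuts of the same regions and add no separate evidence. An unadjusted p below 0.05 was found in 2 of the 195 gene-rich regions (1.03%), against 2.4% of all isolated regions.

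**Figure D4:**
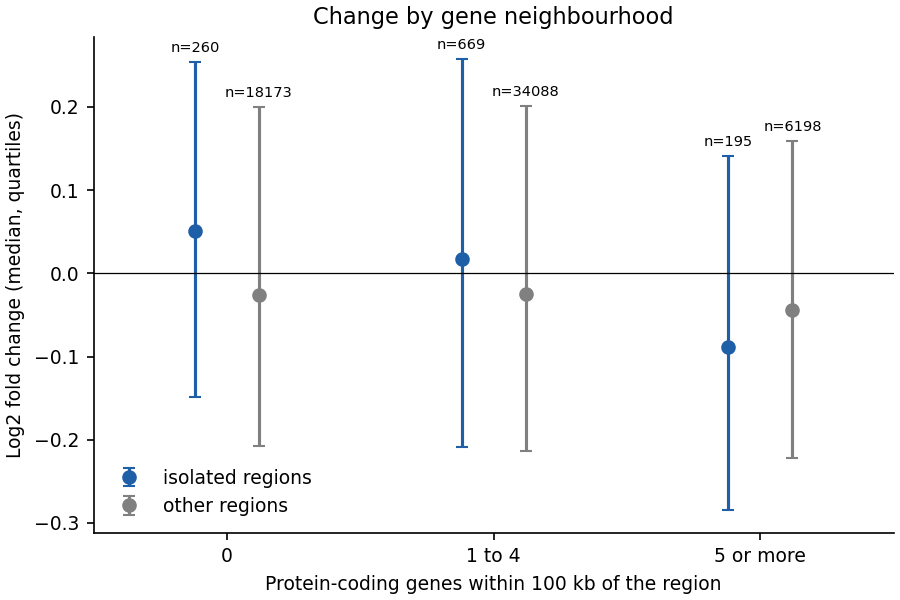
Median log2 fold change with quartiles (vertical axis) for isolated (blue) and other regions (grey) of the same chromosomes, by the number of protein-coding genes within 100 kb. The isolated medians run from 0.05 with no gene to -0.09 with 5 or more, while quartiles overlap throughout.

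Isolated regions were unevenly spread over chromosomes. They made up 3.3% of the regions of chromosome 2 (126 of 3819) and 3.13% of chromosome 19 (42 of 1341), but 0.947% of chromosome 17 (27 of 2850) and 1.25% of chromosome 5 (55 of 4400). Per 10 Mb there were 7.21 on chromosome 19 and 2.94 on chromosome 17. The median log2 fold change of isolated regions ranged from -0.12 on chromosome 9 to 0.09 on chromosome 2, and it was above that of all regions of the chromosome on 12 of 17. Regions with an unadjusted p below 0.05 numbered at most 5 per chromosome, on chromosome 3. Chromosomes 11 and 16, left out by the rule, held further regions with the same gaps, whose values were of another kind, with a median of 0.29, 78% positive and 5 called (4.24%, against 0.281% of the whole table), 4 of them positive. After subtraction of the chromosome median their median was -0.0097. The 129 isolated regions of chromosome X had a median of 0.04 and 0 calls, with 4 unadjusted p-values below 0.05. With the chromosome median subtracted, the median on chromosome X was 0.12, beside 0.03 over the 1124 isolated regions of the rule.

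**Figure D5:**
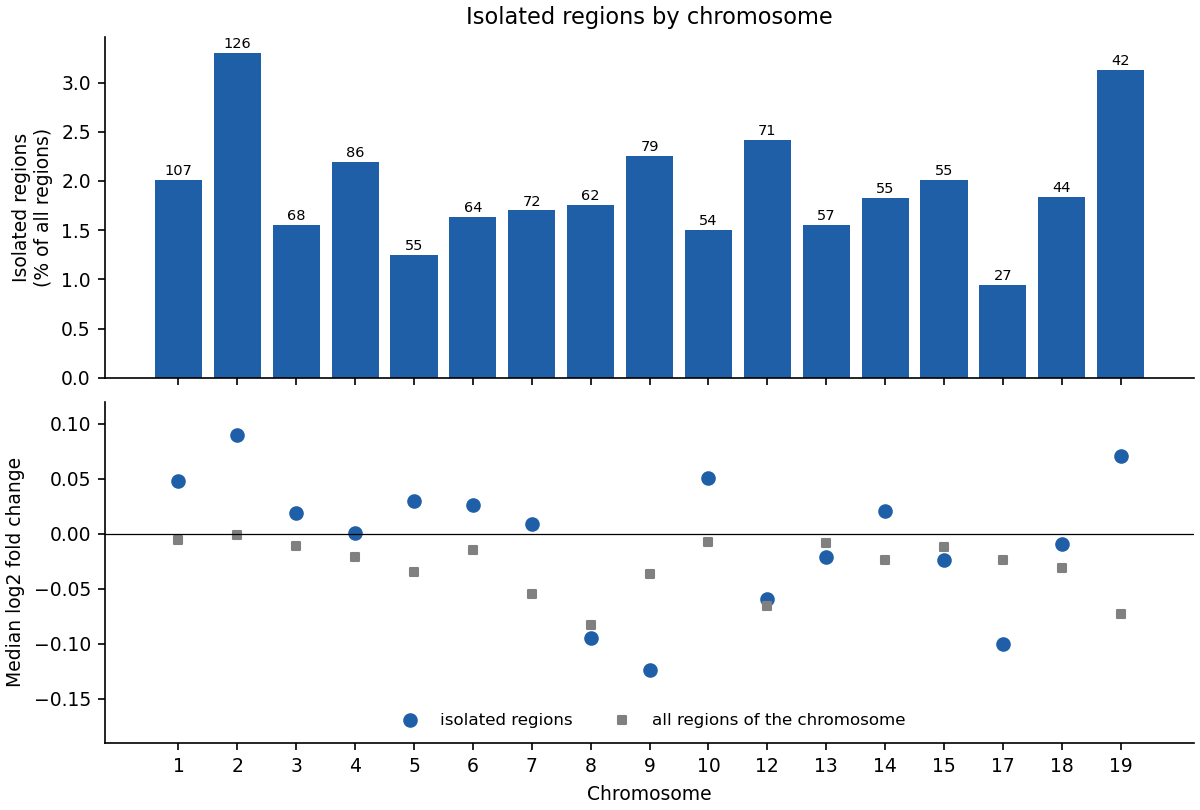
Upper plot, isolated regions as a percentage of all regions of each chromosome, with their number above the bar. Lower plot, median log2 fold change of isolated regions (blue) and of all regions (grey squares); isolated medians lie between -0.12 and 0.09.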

How the data were processed

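H3K9me3 ChIP-seq of 3 immunoprecipitated and 3 input libraries per genotype underlies 1 table of the authors' comparison. Per the submitters' processing notes, Bowtie2 2.2.6, HOMER 4.8, bedtools 2.25.0, edgeR and build mm10 were used, with no role or order given. Per the file headers, the deposited columns give each region's log2 fold change, average log2 CPM, p-value and FDR (adjusted p-value). The sources used here do not state how regions were defined, which libraries entered or whether input was used. CPM values sum to 1081650, so signal nearly equals a region's share of reads in listed regions, on which a shift of every region alike cannot show.

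Deposited FDR values differed by at most 3.2e-05 from Benjamini-Hochberg values recomputed over the whole table. Gaps, widths (end minus start), overlaps with 49997 RefSeq gene bodies of GRCm38.p6, matches to 16 gene lists and 3 motifs, and medians were computed with Python 3.11.15, pandas 2.3.3, numpy 2.4.6 and SciPy 1.17.1; the gap rule and adjustments were checked on simulated data. Regions named were the 10 of smallest p, the 10 of highest signal, the 6 widest, the 6 most remote, the 5 largest changes per direction at a log2 CPM of 4 or more, up to 3 per gene list, those at gene starts and those beside the gap limit; not all are printed. No test was made between sets of regions, which share their libraries. The members, lists and rules were chosen with earlier results of these data known. The planned fits per library could not be made, as the table has 0 columns of single libraries.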

Additional observations from a re-analysis of the deposited data

How the results depend on the processing

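No paired analysis was possible because the table holds 0 columns of single libraries; for the same reason no replicate could be left out, and neither DESeq2 nor another filter on counts was run. The count of 0 called isolated regions held in 8 of 9 alternatives, among them Holm adjustment, an FDR below 0.01 and adjustment without chromosomes 11 and 16; with a gap of 50000 bp, 3 of 4111 isolated regions were called. A gap of 200000 bp left 166. The share over a gene was 50.38% at 50000 bp and 65.06% at 200000 bp, 64.86% with gene bodies extended by 5000 bp and 46.8% for protein-coding genes alone, in place of 56.05%. The 563 regions at a log2 CPM of 3 or more had a median log2 fold change of -0.028, 44.23% positive values, a median log2 CPM of 3.80 and a median width of 1134 bp. The 361 regions of 1000 bp or more had -0.025, 43.77%, 4.14 and 1423 bp, since both limits remove weak regions. With the median of regions of like signal subtracted, the median was 0.038 and 54.09% were positive, and with the chromosome median subtracted 0.031 and 53.56%. The median was negative under both limits and positive under both subtractions. Omission of windows of chromosomes 6, 10 and 13 whose values an earlier reading gave as shifted left 1122 regions and the same median. No library values were available to set a spread between replicates, so changes were read against a 95% binomial interval, or 1.5 times for counts.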
